A study of Mus musculus with 14 samples.

Results

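The LIF-Stat3 signalling genes described here are the 6 mouse genes Lif, Lifr, Il6st, Jak1, Stat3 and Socs3, out of 21938 protein-coding genes. They were chosen by name, for their place in the pathway. Regions called for 5 antibodies were counted and placed in a window that begins 20 kb before the gene's transcription start site (TSS) and ends 20 kb past the gene. All 6 genes were found in the annotation, and all 6 windows held called regions.

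Leukaemia inhibitory factor (LIF), the product of Lif, is the cytokine that keeps mouse embryonic stem cells (mESC) undifferentiated in culture. It binds a receptor made of Lifr and the shared signalling chain gp130, encoded by Il6st. The receptor-bound kinase Jak1 then phosphorylates Stat3, which enters the nucleus, binds DNA and activates pluripotency genes as well as Socs3, an inhibitor that acts back on the receptor and the kinase.

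Chromatin of 81K1 cells was immunoprecipitated and sequenced (ChIP-seq) with antibodies against Smarca4, the ATPase of the esBAF remodelling complex, Ezh2, the methyltransferase of PRC2, and the histone marks H3K27me3, H3K27ac and H3K4me3. 81K1 is a clone of OG2-based mESC in which doxycycline induces an shRNA against Smarcb1, a core subunit of esBAF. Control cells carried the same construct and were left untreated, and Smarcb1 kd cells received 1 µg of doxycycline per ml of medium each day and were analysed after 72 h. Both grew in serum-containing medium with LIF added, so that the pathway was supplied with its ligand in either condition. The series holds 14 samples, of which 4 are background samples, and 10 lists of regions, 1 library per antibody and condition.

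With 1 library per group there was no test, no p-value and no replicate check, and all comparisons below are between these libraries. The lists carry no read counts, so the depth of each library is unknown here, and a region missing from a list is a missing call, not a measured loss. Per the methods a service company did the immunoprecipitation for Smarca4 and H3K27me3 on fixed cells sent to it, and sequenced them, while the labels name 1 core facility as the sequencing site of all samples. Where these 2 antibodies were sequenced is thus unclear here, and differences between them and the other antibodies cannot be told apart from the place of work. The lists differ in length: Smarca4 had 79014 control and 72339 kd peaks, Ezh2 6708 and 5364, H3K27me3 22909 and 18320 islands, H3K27ac 39091 and 51100, and H3K4me3 26130 and 33506. For each histone mark, the condition with the longer list also had more islands in the gene windows. For Smarca4 and Ezh2 the kd list was the shorter, but the windows held more peaks in kd. Smarca4 had 72 peaks there in control and 78 in kd, and Ezh2 0 and 1. The part of list length in these counts was not tested. Genes that mark stem cells fitted the label of the cells, with an H3K4me3 island within 1 kb of the TSS of 8 of 9 such genes and H3K27ac at 7 of 9 in control. Of 20 markers of endoderm, mesoderm, neural cells, fibroblasts and trophoblast, 0 had H3K27ac within 1 kb of the TSS in either condition and 19 had H3K27me3 in both. Smarcb1 itself had Smarca4, H3K27ac and H3K4me3 at its TSS in both conditions. ChIP-seq does not measure the knockdown, since the shRNA acts on the transcript.

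Positions are given in bp from the TSS of the annotated gene, in the direction of transcription, so that upstream positions are negative. Regions that shared at least 1 bp with a region of the same antibody in the opposite list were called shared, and all others control-only or kd-only. The strength of a peak is given by its MACS2 score and its percentile, the share of its own list with a score at or below it. Percentiles of islands were built from the SICER p-value.

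In control, H3K27me3 islands covered 50.9% of the Lif window and 33.5% of the Socs3 window, and in Smarcb1 kd no H3K27me3 island was called in either. H3K27ac, a mark of active promoters and enhancers, covered 15.3% of the Lif window in control and 40.5% in kd, and 19.6% and 59.6% of the Socs3 window. Both genes had H3K27ac within 1 kb of the TSS in kd alone. Lifr, Il6st, Jak1 and Stat3 each had the same set of histone marks in both conditions within 1 kb of the start site with H3K4me3. Smarca4 was called in all 6 windows in both conditions, most densely at Lif and Socs3. Ezh2 had 1 peak in all 6 windows together.

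The windows differ in size and in neighbours. Lif lies on chromosome 11, plus strand, from 4257557 to 4272514 (GRCm38), and its window of 55.0 kb reaches into the body of Osm, the gene of the related cytokine oncostatin M, whose own TSS lies outside at -21137 bp. Lifr lies on chromosome 15, plus strand, from 7090614 to 7197489, with a window of 147 kb. Il6st lies on chromosome 13, plus strand, from 112464070 to 112510086, with a window of 86.0 kb. Jak1 lies on chromosome 4, minus strand, from 101152367 to 101265282, with a window of 153 kb. Stat3 lies on chromosome 11, minus strand, from 100885098 to 100939540, and its window of 94.4 kb reaches into Cavin1 on the upstream side and Stat5a on the downstream side. Socs3 lies on chromosome 11, minus strand, from 117966079 to 117970047, with a window of 44.0 kb that holds the TSS of Pgs1 at -16245 bp. The TSS of no other protein-coding gene lies in the 6 windows. Noncoding genes that start inside a window were the lincRNAs Gm11959 and Gm11958 at Lif, and the snRNAs Gm24468 and Gm25124, the pseudogene Gm12785 and the lincRNA Gm12801 at Jak1.

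Promoter sequences were taken from RefSeq (GRCm38.p6, 250 bases before to 50 after a start), which held 7 entries for the 6 genes and at least 1 for each. Shown are the promoters that an H3K27ac island overlapped in kd alone, Lif and Socs3, and that of Lifr, which H3K27ac and H3K4me3 overlapped in both. The Jak1 promoter, not shown, differed in H3K27me3, which overlapped it in control alone. Capitals mark a match to TTCNNNGAA, the palindrome that STAT dimers bind, which reads the same on both strands. A match describes letters, not a bound site.
Lif, chr11:4257318-4257617, plus strand: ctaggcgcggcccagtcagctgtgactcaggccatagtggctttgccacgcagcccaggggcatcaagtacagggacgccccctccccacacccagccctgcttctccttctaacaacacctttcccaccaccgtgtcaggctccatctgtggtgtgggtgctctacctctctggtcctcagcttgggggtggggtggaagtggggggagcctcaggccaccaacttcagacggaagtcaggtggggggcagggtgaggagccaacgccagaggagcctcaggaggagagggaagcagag
Lifr, chr15:7129322-7129621, plus strand: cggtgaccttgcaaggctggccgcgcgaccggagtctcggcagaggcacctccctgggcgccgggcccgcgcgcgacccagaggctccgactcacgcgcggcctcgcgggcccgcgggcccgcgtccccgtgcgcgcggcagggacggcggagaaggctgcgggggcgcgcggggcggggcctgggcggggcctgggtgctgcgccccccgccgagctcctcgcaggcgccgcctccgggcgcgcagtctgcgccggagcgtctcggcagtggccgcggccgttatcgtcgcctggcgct
Socs3, chr11:117969317-117969616, minus strand: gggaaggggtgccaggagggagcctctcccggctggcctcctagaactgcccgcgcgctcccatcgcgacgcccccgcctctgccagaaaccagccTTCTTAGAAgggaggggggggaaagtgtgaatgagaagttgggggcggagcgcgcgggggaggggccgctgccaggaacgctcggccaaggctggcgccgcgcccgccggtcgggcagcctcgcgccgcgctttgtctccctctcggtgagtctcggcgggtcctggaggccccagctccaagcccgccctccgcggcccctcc
The Lif window was 63.7% G and C with 7 CpG dinucleotides, the Lifr window 81.3% with 53, and the Socs3 window 73.3% with 31, against medians of 52.7% and 7 over 32851 mouse promoters. The palindrome stood in 1 of the 7 promoter entries, that of Socs3, and in 8.30% of all promoters. RefSeq starts Socs3 at 681 bp and Lifr at 38958 bp past the outermost GENCODE start, so these windows lie inside the annotated genes.

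At Lif, the ligand gene, 4 H3K27me3 islands were called in control, at -28956 to -15957, -1356 to 8643, 15044 to 21243 and 27244 to 59043 bp. Their percentiles were 72.7, 64.3, 60.8 and 85.1, so none was near the threshold of the list. The island over the TSS (chr11:4256201-4266200, 10000 bp) covered the promoter printed above and the long first intron. The outer islands ran past the ends of the window, and the first lay partly over Osm. In the kd list all 4 were missing. A covered share that was lower by as much as at Lif, 50.9 percentage points, was seen in 0.811% of all protein-coding windows. A window can be lower by at most its control share, which had a median of 7.32% over all windows. Most windows thus could not be lower by as much.

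H3K27ac at Lif had 1 island in control, upstream at -15956 to -7557 bp, among the strongest of its list (percentile 98.3). In kd this island was wider, from -20556 to -3557 bp (percentile 99.5), and 3 kd-only islands were called. The first lay at -2756 to 243 bp over the TSS (chr11:4254801-4257800, percentile 89.6), the second at 8644 to 10843 bp (percentile 55.9) and the third, of 600 bp, at 30644 bp (percentile 35.4, 75.2% repeat-masked). The kd-only H3K27ac island over the TSS and the control H3K27me3 island over the TSS both cover the promoter printed above. H3K27me3 at the TSS in control alone was found for 8.15% of all protein-coding genes and H3K27ac there in kd alone for 16.8%. Of all windows, 1.39% had a covered share that was higher by as much as at Lif.

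H3K4me3, the mark of active start sites, was called at Lif at an internal start alone, at 8244 to 11043 bp in control and 8444 to 10843 bp in kd, with percentiles of 53.4 and 78.6. Transcripts of Lif start at 9239 and 9538 bp there, and H3K27me3 was called within 1 kb of these starts in control alone. At the outermost TSS no H3K4me3 island was called in either condition. The kd-only H3K27ac island at 8644 bp begins 1 bp past the end of the control H3K27me3 island and covers this internal start.

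Smarca4 had 23 peaks in the Lif window in control and 23 in kd, of which 5 were control-only and 7 kd-only. In control, 41.9 peaks per 100 kb put Lif among the densest 1.14% of windows. The peak over the TSS scored 156 in control (-687 to 613 bp, chr11:4256870-4258170) and 140 in kd (-901 to 1349 bp, chr11:4256656-4258906), percentiles of 84.2 and 79.7. The peak at the internal start scored 159 in control and 397 in kd, and its percentile was 84.6 and 97.9. The strongest control-only peak scored 93 (chr11:4263876-4265014, in the first intron) and the strongest kd-only peak 98 (chr11:4253605-4254150, upstream), percentiles of 67.3 and 68.7.

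The shared Smarca4 peaks of Lif split by position, a comparison chosen after their values were seen. Upstream, 9 of 10 shared control peaks had a higher percentile in kd, with a median difference of 16.3 percentage points. From the TSS on, 1 of 8 did, the peak at the internal start, with a median difference of -18.9. Of the 12 shared peaks that overlapped a kd H3K27ac island, 10 stood higher in kd, and of the 6 that did not, 0. Socs3 did not show this split, with 4 of 11 and 2 of 5. Over all 6 genes it was 20 of 36 and 4 of 15. Over the whole Smarca4 list, 60.6% of shared peaks in a kd H3K27ac island and 40.3% of the others stood higher in kd. At Lif the largest differences were at -16117 bp, with scores of 30 in control and 140 in kd (percentiles of 9.39 and 79.7), and at -11715 bp, with scores of 43 and 226 (25.7 and 90.0). Both lie under the upstream H3K27ac island of the kd list.

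**Figure D1:**
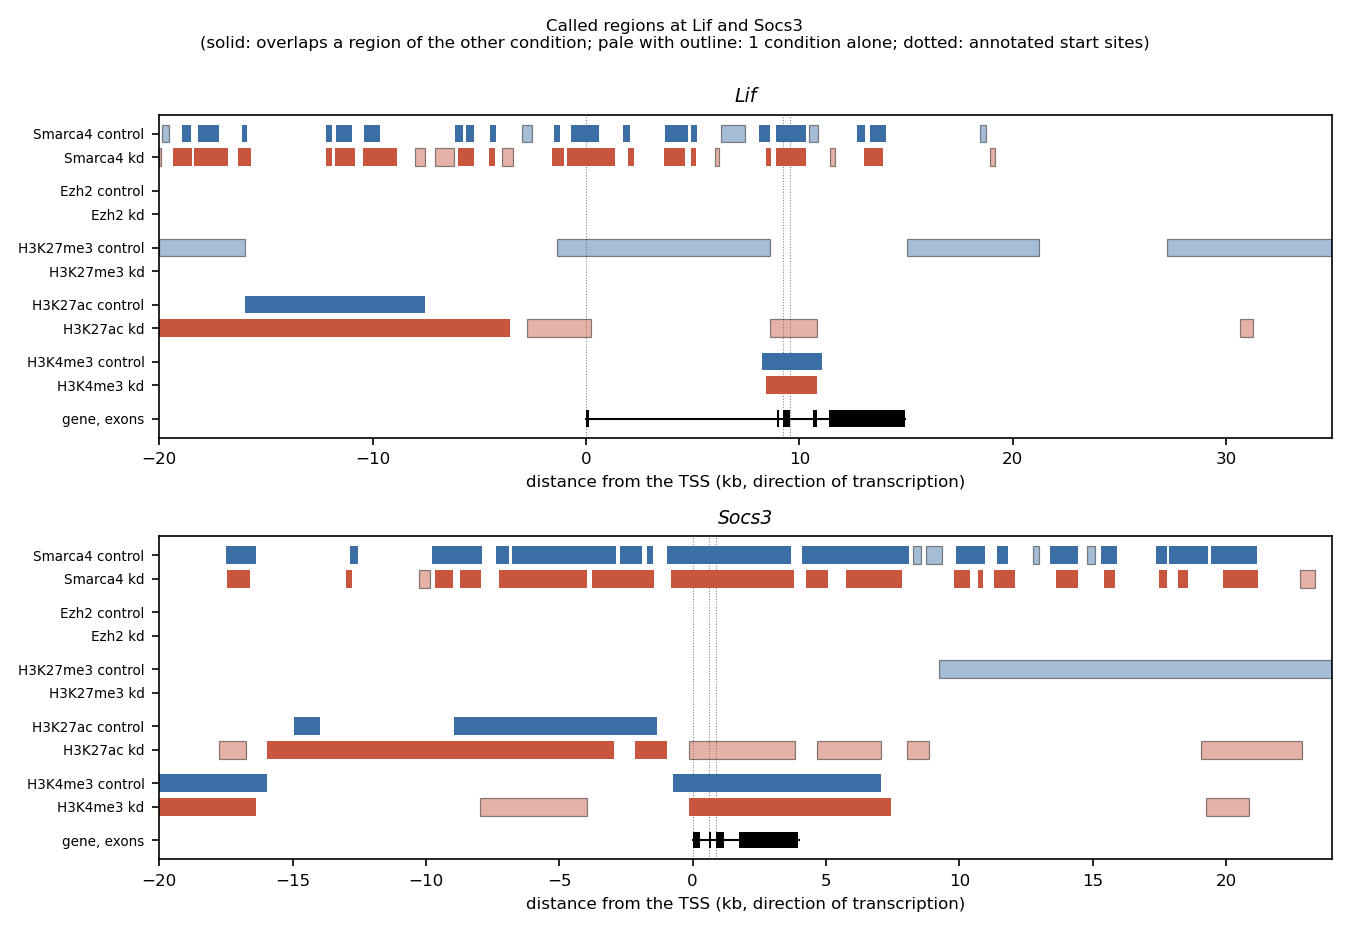
Called regions of the 5 antibodies in the windows of Lif (top) and Socs3 (bottom), by distance from the TSS in kb, control in blue and kd in red, with exons in black and annotated start sites dotted. Solid bars overlap a region of the other condition and pale bars with an outline are of 1 condition alone. At Lif 4 H3K27me3 islands of control and at Socs3 1 have no counterpart in kd, while H3K27ac covers 40.5% and 59.6% of the windows in kd.

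At Socs3, the feedback inhibitor, 1 H3K27me3 island was called in control, past the gene end at 9247 to 26446 bp (percentile 67.4), and none in kd. The gene body and promoter carried no H3K27me3 island in either condition. The window's covered share was 33.5% in control, and 4.09% of all windows were lower in kd by as much. Windows with a smaller control share could not be.

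H3K27ac at Socs3 had 2 islands in control, both upstream, at -8953 to -1354 bp and -14953 to -13954 bp, with percentiles of 36.5 and 13.4. In kd 7 islands were called. An island of 13000 bp at -15953 to -2954 bp overlapped both control islands and stood at percentile 99.4. A second shared island lay at -2153 to -954 bp (chr11:117971001-117972200). Of the 5 kd-only islands, that over the gene body reached from -153 to 3846 bp (chr11:117966201-117970200, percentile 78.1), and the others lay at 4647, 8047, 19047 and -17753 bp, the last next to the TSS of Pgs1. Of these last 4, the island at 8047 bp stood at percentile 68.5, with 76.3% of its bases repeat-masked, and the other 3 were weak, with percentiles between 3.27 and 9.53. A covered share that was higher by as much as at Socs3, 40.0 percentage points, was seen in 0.169% of windows. In lists cut to equal length, 2 of the 5 kd-only islands of Socs3 were left, while the 3 of Lif all were.

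H3K4me3 covered 26.9% of the Socs3 window in control and 38.3% in kd, the highest shares of the 6 genes. The island over the gene covered -753 to 7046 bp in control (chr11:117963001-117970800) and -153 to 7446 bp in kd (chr11:117962601-117970200), with a p-value listed at 0 in both, the strongest a list can hold. A second shared island, at -22353 to -15954 bp in control, lay over the TSS of Pgs1. In kd 2 further islands were called, at -7953 to -3954 bp (percentile 36.4) and 19247 to 20846 bp (percentile 23.6), both within kd H3K27ac islands.

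Smarca4 covered more of the Socs3 window than of any other member's, 58.2% in control and 48.8% in kd. The window held 20 peaks in control and 19 in kd, 4 of them control-only and 2 kd-only, and at 45.5 peaks per 100 kb in control 0.688% of windows were as dense. The peak over the gene was 4635 bp wide in control (chr11:117966372-117971006) and 4601 bp in kd (chr11:117966252-117970852), with scores of 471 and 494 and a percentile of 99.1 in both. In their lists 81 and 47 peaks, these included, were at least as wide. An upstream peak at -6784 to -2885 bp scored 512 in control, the highest of the control peaks in the 6 windows, and its kd counterpart at -7255 to -3949 bp scored 345. Of 16 shared control peaks 6 had a higher percentile in kd, with a median difference of -3.10 percentage points. The strongest control-only peak scored 87 (chr11:117954977-117955265) and the strongest kd-only peak 61 (chr11:117946729-117947269), both downstream of the gene. The kd share minus the control share was -9.43 percentage points at Socs3, as low as or lower than this in 1.59% of windows. At Lif it was 5.42, as high or higher in 0.793% of windows. A window cannot be lower by more than its control share of Smarca4, which had a median of 2.47% over all windows.

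The STAT palindrome was searched in all Smarca4 peaks of the 6 windows, and 26 distinct matches were found, 14 at Socs3, 6 at Lif, 5 at Lifr, 1 at Jak1 and 0 at Il6st and Stat3. Of the central 300 bp of the peaks, 9.72% in control and 8.97% in kd held a match (7 peaks each), against 6.99% and 6.82% of the whole lists. Of the 26 matches, counted over whole peaks, 3 had the longer form TTCCNGGAA. Whole peaks with this form were 3 of 72 in control (4.17%) and 3 of 78 in kd (3.85%), against 2.15% and 1.79% of the whole lists. Wider peaks hold more letters, and the widths were not matched. Of the central 300 bp, 0 control peaks and 1 kd peak of the 6 windows held it, against 1.09% and 0.950% of the lists and 1.15% of promoters. They are shown because Stat3 binds this form, each in the direction of its gene with the match in capitals.
Socs3, chr11:117969229-117969257, minus strand: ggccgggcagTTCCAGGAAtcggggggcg
Socs3, chr11:117962613-117962641, minus strand: gcttccgctcTTCCTGGAAagggaatttc
Lifr, chr15:7115507-7115535, plus strand: tggggagagaTTCCAGGAAatgaaacaac
The first lies in an intron of the longer Socs3 transcripts, at -61 bp from the start of the coding transcript, which begins at 861 bp, inside the widest Smarca4 peak and the kd-only H3K27ac island over the gene. The second lies downstream of Socs3, at 7416 bp, in a Smarca4 peak that scored 410 in control and 294 in kd. The third lies in an intron of Lifr at 24903 bp, in a peak that scored 149 in control and 53 in kd.

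At Lifr, the gene of the ligand-binding receptor chain, the outermost TSS carried no histone mark in either condition. Its Smarca4 peak at -573 to -339 bp (chr15:7090041-7090275) had a score of 57 and a percentile of 44.3 and was called in control alone, as at 2.69% of all genes. The other 5 members had Smarca4 within 1 kb of the TSS in both conditions, as had 59.8% of all genes. The start used by H3K4me3 lies at 38945 to 38958 bp, where islands of 10600 bp in control and 7600 bp in kd had p-values listed at 0. A pair of Smarca4 peaks stood at this start in both conditions, with percentiles from 95.9 to 99.4. The peak over the start scored 446 in control and 529 in kd, and the peak just before it 302 and 435.

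H3K27ac had 5 islands at Lifr in each condition, covering 13.3% of the window in control and 12.8% in kd. The strongest lay in the first intron, at 22387 to 31386 bp in control (percentile 98.2) and 20987 to 28986 bp in kd (percentile 97.4), and a second reached from 33987 bp over the start at 38945 bp. The intronic island held the printed palindrome. Of the other islands, 1 was control-only, at 88587 bp, and 1 kd-only, at -11013 bp. H3K27me3 was absent from the control list and had 1 weak kd-only island at -9413 to -7814 bp (percentile 5.21).

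Smarca4 peaks of 1 condition alone were most numerous at Lifr, 9 of 17 in control and 9 of 18 in kd. Their scores stayed between 32 and 86 in control and between 26 and 73 in kd. The strongest were at chr15:7071548-7071838, upstream, with a score of 86 in control, and at chr15:7134038-7134447, in an intron, with a score of 73 in kd.

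At Il6st, which encodes gp130, the TSS carried Smarca4, H3K27ac and H3K4me3 in both conditions and no H3K27me3 was called in the window. The Smarca4 peak over the TSS scored 467 in control (-664 to 1222 bp, chr13:112463406-112465292) and 571 in kd (-754 to 805 bp, chr13:112463316-112464875), the highest score of the kd peaks in the 6 windows. H3K27ac over the TSS spanned -3669 to 2130 bp in control (chr13:112460401-112466200) and -5669 to 1530 bp in kd (chr13:112458401-112465600), with percentiles of 85.1 and 77.0. H3K4me3 reached from -2269 to 3930 bp in control (chr13:112461801-112468000) and from -2469 to 7130 bp in kd (chr13:112461601-112471200), with p-values listed at 0. Of 8 control and 9 kd Smarca4 peaks, 3 and 5 were of 1 condition alone, the strongest with scores of 86 (chr13:112465596-112465979) and 92 (chr13:112454598-112454871). A kd-only H3K27ac island of 400 bp lay in an exon at 42931 bp.

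At Jak1, the kinase gene, Smarca4 had a single peak in each list, over the TSS, with a score of 148 in control (chr4:101264568-101265475) and 320 in kd (chr4:101264463-101265425), percentiles of 82.8 and 95.7. Jak1 was the only member with H3K4me3 and H3K27me3 together within 1 kb of the outermost TSS, in both conditions. This pairing was found at 21.2% of all genes in control. The internal starts of Lif had it in control alone. H3K27me3 stood within 1 kb of the TSS in both conditions at 26.8% of genes. H3K4me3 at Jak1 spanned -718 to 1481 bp in control (chr4:101263801-101266000, percentile 87.1) and -718 to 1081 bp in kd (chr4:101264201-101266000, listed at 0). H3K27me3 formed an island of 12000 bp across the Jak1 TSS in control, from -7318 to 4681 bp (chr4:101260601-101272600). In kd it was called as islands on both sides, at -7518 to -719 bp (chr4:101266001-101272800) and 482 to 4281 bp (chr4:101261001-101264800), with a gap over the TSS. The kd Smarca4 and H3K4me3 regions lie over this gap and run into the island that begins at 482 bp. Together with an upstream island in both lists, H3K27me3 covered 10.5% of the window in control and 10.1% in kd. No H3K27ac island was called in the 153 kb window in either condition.

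At Stat3, the transcription factor gene, the TSS carried Smarca4, H3K27ac and H3K4me3 in both conditions. The Smarca4 peak there scored 489 in control (chr11:100938769-100940221) and 256 in kd (chr11:100938790-100940095), percentiles of 99.2 and 92.2. H3K27ac over the TSS was weak in control (chr11:100938001-100942200, percentile 13.1) and stronger in rank in kd (chr11:100938401-100940200, percentile 47.8), and kd-only islands lay at -9660 and 9940 bp, with percentiles of 35.9 and 4.60. With a minimum -log10 p of 10, the control island over the TSS was no longer called. H3K4me3 over the TSS spanned -1660 to 2939 bp in control (chr11:100936601-100941200) and -660 to 2939 bp in kd (chr11:100936601-100940200), with percentiles of 75.0 and 83.0.

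The ends of the Stat3 window belong to other genes. Downstream, in the body of Stat5a, control-only H3K27me3 islands were called at 54540 to 60739 bp and 62340 to 69939 bp (percentiles of 38.6 and 67.9), and 4 of the 5 kd-only Smarca4 peaks lay there, with scores from 23 to 30. The share of the window covered by H3K27me3 was 21.4% in control and 3.22% in kd, and 13.9% of windows were lower by as much. Here too a window can be lower by at most its control share. Upstream, in the body of Cavin1, the only Ezh2 peak of the 6 windows was called in kd, with a score of 37 and a percentile of 8.91 (chr11:100958777-100959184). Smarca4 and H3K27me3 were called there in both conditions and H3K4me3 in kd alone, at -20060 to -18461 bp. The strongest kd-only Smarca4 peak of the window also lay there, with a score of 46 (chr11:100957932-100958427). With a minimum score of 50 none of the 5 kd-only peaks was left.

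**Figure D2:**
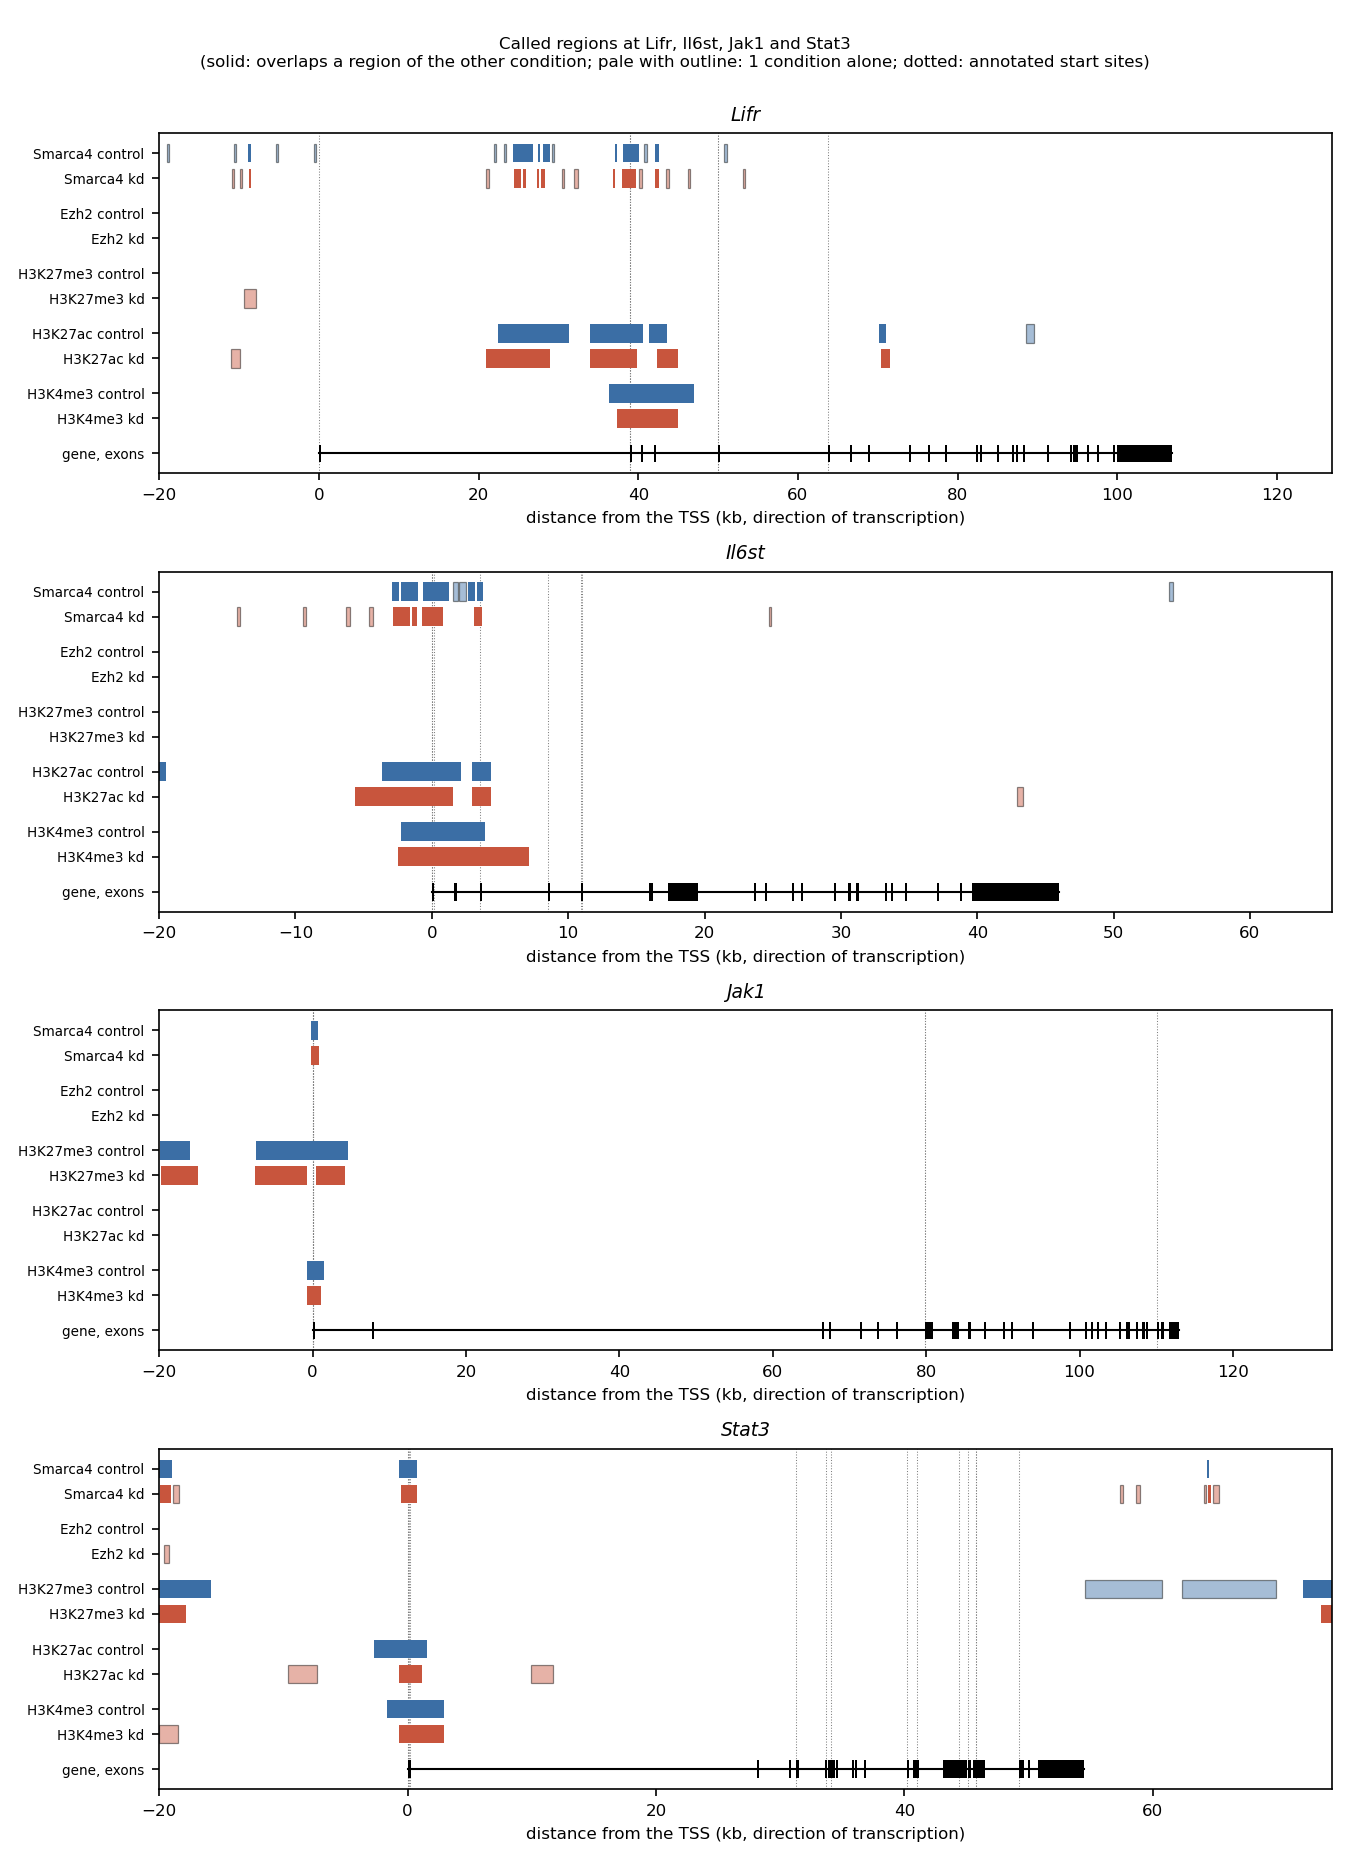
Called regions in the windows of Lifr, Il6st, Jak1 and Stat3 (top to bottom) by distance from the TSS in kb, drawn as in the map of Lif and Socs3. H3K4me3 marks the Lifr start at 38945 bp and the TSS of the other 3 genes in both conditions, and Jak1 shows H3K27me3 on both sides of its TSS and no H3K27ac.

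**Figure D3:**
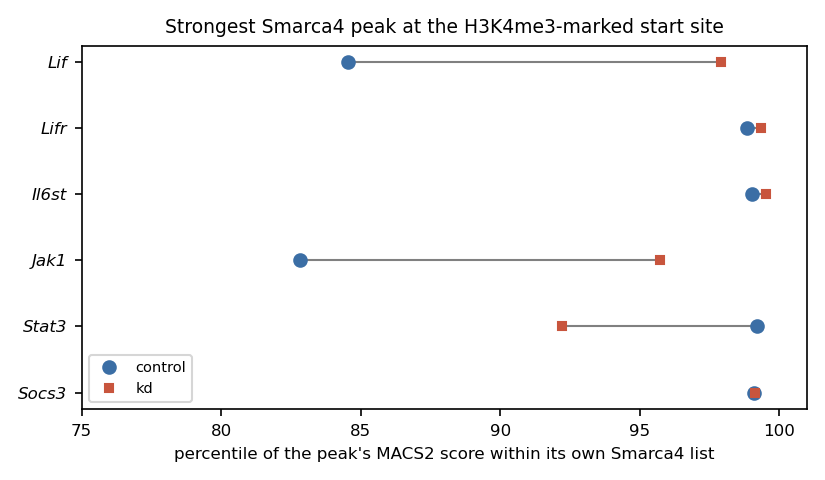
Percentile of the MACS2 score of the strongest Smarca4 peak at the start site with H3K4me3, control as circles and kd as squares. Lif and Jak1 stand 13.4 and 12.9 percentage points higher in kd, Stat3 differs by -7.00, and the other 3 genes differ by at most 0.495.

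The percentile has a ceiling of 100, which limits the comparison between genes. Lif and Jak1 had control percentiles of 84.6 and 82.8 at this start, while those of Lifr, Il6st, Stat3 and Socs3, from 98.9 to 99.2, left little room above. Over all 14914 shared Smarca4 peaks with a control percentile of 80 or more, the median difference was -5.47, with quartiles of -16.9 and 0.679. The 5th and 95th percentiles of this difference were -51.2 and 8.27. The value of Stat3 lies between these quartiles, and those of Lif and Jak1 above 8.27. The scores at the start with H3K4me3, which are not scaled between libraries, were higher in kd at 5 of the 6 genes and lower at Stat3. They were 446 in control and 529 in kd at Lifr, 467 and 571 at Il6st, and 471 and 494 at Socs3, so that a percentile near its ceiling does not show an equal score.

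Over the 6 windows Smarca4 had 72 control and 78 kd peaks, with a median of 12.5 and 13.5 per gene against 3 over all protein-coding genes in both conditions. These counts are not scaled by window size. Per 100 kb in control, 1.14% of windows were as dense as Lif, 0.688% as Socs3, 24.3% as Lifr and 29.6% as Il6st. As dense as Stat3 and Jak1 were 55.8% and 78.0%. Control-only peaks stood in 4 of the 6 windows, against 55.5% of all protein-coding windows, and kd-only peaks in 5, against 58.2%. Of the control peaks 21 (29.2%, 95% Wilson interval 19.9 to 40.5%) were control-only, below the 43.9% of the whole list. Of the kd peaks 28 (35.9%, 26.1 to 47.0%) were kd-only, against 35.6% of the list. These intervals cover counting error only. Peaks of 1 condition alone had median scores of 56 and 48, and shared peaks 94 and 89.

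H3K27me3 had 11 islands in control and 6 in kd over the 6 windows. Control-only islands stood in 3 of 6 windows (Lif, Stat3 and Socs3), against 36.4% of all windows, and a kd-only island in 1 (Lifr), against 11.8%. Of the 4 windows with an island in control, Lif and Socs3 had none in kd, against 20.1% of all windows with a control island. Both also had kd-only H3K27ac islands, a combination found in 9.1% of all windows. Among all windows with H3K27me3 in control and none in kd, 69.8% had a kd-only H3K27ac island and 64.9% more H3K27ac covered in kd, as both of these genes had.

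H3K27ac had 12 islands in control and 22 in kd, of which 12 (54.5%, Wilson interval 34.7 to 73.1%) were kd-only, against 40.1% of the list. A kd-only island stood in 5 of 6 windows, against 56.2% of all, and a control-only island in 1, against 22.4%. Within 1 kb of the TSS, H3K27ac was called at Il6st and Stat3 in both conditions, and at Lif and Socs3 in kd alone, 2 of 6 each, where 14.1% of all protein-coding genes had it in both and 16.8% in kd alone. H3K4me3 had 7 islands in control and 10 in kd, with a kd-only island in 2 windows, against 30.5%, and a control-only island in 0, against 6.57%. Within 1 kb of the TSS it was called in both conditions at 4 genes, Il6st, Jak1, Stat3 and Socs3, as at 55.8% of all genes. Ezh2 had a kd-only peak in 1 window, against 14% of all, and a control-only peak in 0, against 11.2%. A peak in either condition stood in 29.6% of all windows.

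**Figure D4:**
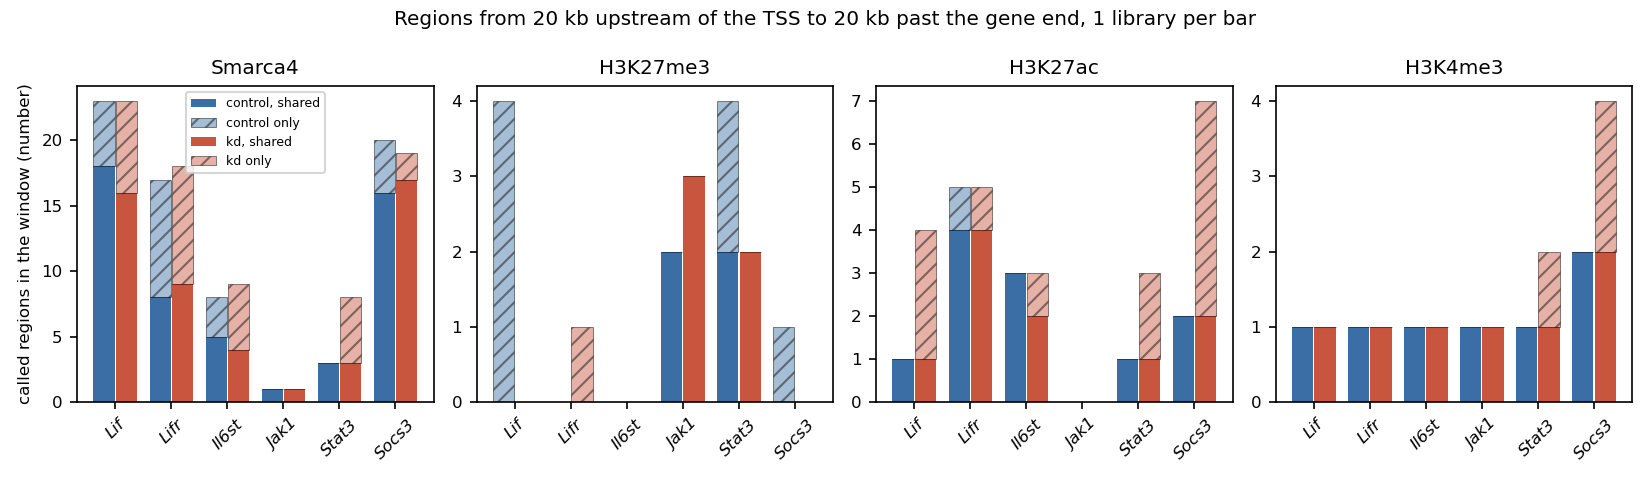
Number of called regions in each gene's window for Smarca4, H3K27me3, H3K27ac and H3K4me3, control in blue and kd in red, 1 library per bar, with hatched parts for regions of 1 condition alone. The panels differ in scale. Socs3 has 2 H3K27ac islands in control and 7 in kd, and Lif 4 H3K27me3 islands in control and 0 in kd.

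**Figure D5:**
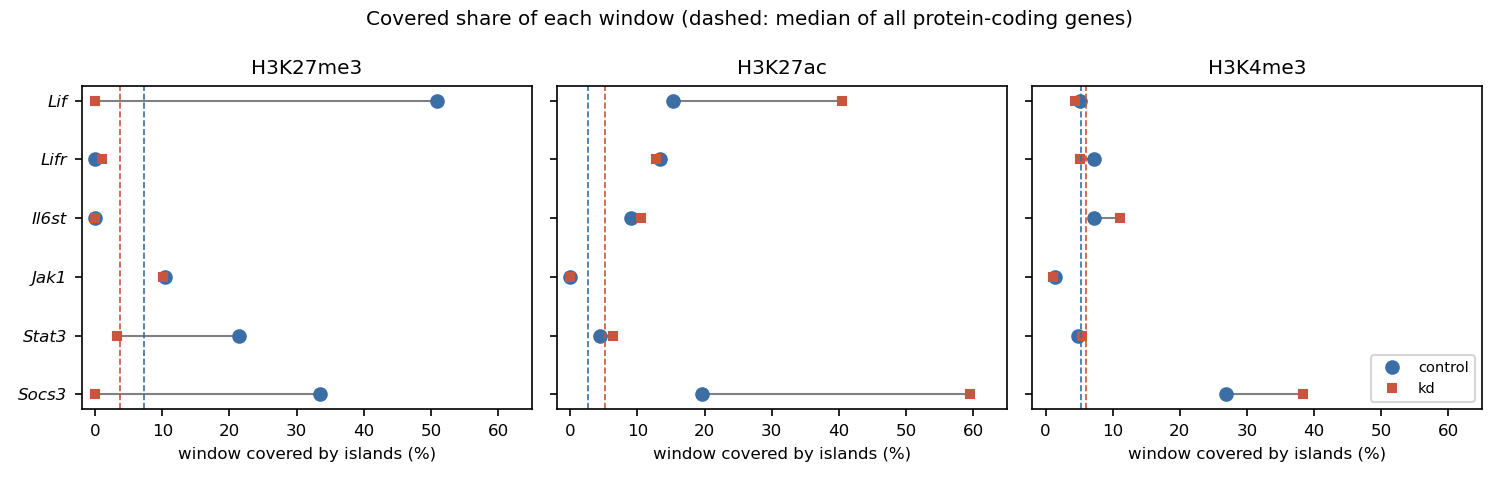
Share of each window covered by islands of H3K27me3, H3K27ac and H3K4me3 in percent, control as circles and kd as squares, with dashed lines at the medians of all protein-coding windows. H3K27me3 covers 50.9% of the Lif and 33.5% of the Socs3 window in control and 0 in kd, and 21.4% and 3.22% at Stat3, while H3K27ac in kd is highest at Socs3 (59.6%) and Lif (40.5%) and stays at 0 at Jak1.

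The marks that the Smarca4 peaks lay in were counted over the 6 windows and for each gene. In control, 26 of 72 peaks (36.1%) overlapped an H3K27ac island and 25 (34.7%) an H3K27me3 island. In kd it was 46 of 78 (59.0%) and 4 (5.13%). Over the whole lists the share in H3K27ac was 23.2% in control and 40.8% in kd, and that in H3K27me3 34.6% and 24.4%. At Lif 12 of 23 and at Socs3 10 of 20 control peaks lay in H3K27me3, and 0 kd peaks of either gene did. In H3K27ac lay 4 of 23 control and 16 of 23 kd peaks of Lif, and 5 of 20 and 12 of 19 of Socs3. The other genes did not all show this. In H3K27ac lay 9 of 17 control and 12 of 18 kd peaks of Lifr, 7 of 8 and 5 of 9 of Il6st, 1 of 3 and 1 of 8 of Stat3, and 0 of 1 in both conditions at Jak1. In H3K27me3 lay 2 of 3 control and 2 of 8 kd peaks of Stat3, 1 of 18 kd peaks of Lifr and the single Jak1 peak of either list. The differences between control and kd in the summed counts thus rest mostly on Lif and Socs3.

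The other genes of the pathway were counted from a list of 40 ligands, receptors, kinases, STAT factors, inhibitors, adaptors and Stat3 targets, all of which were found. Smarca4 was called within 1 kb of the TSS of 35 of them in each condition, the same 35 genes, and H3K4me3 at 30 in control and 33 in kd, in kd alone at Ctf1, Ptpn6 and Stat6, against 4.59% of all genes. H3K27ac was called at 9 in control and at 23 in kd, and the 14 genes with it in kd alone included the ligand genes Osm and Clcf1, the kinase genes Jak2 and Jak3, the inhibitors Socs1, Pias3, Ptpn2 and Ptpn6, and the targets Klf4, Gbx2, Myc, Pim3 and Tfcp2l1. Stat2 completes this group. That share, 14 of 40, stands beside the 16.8% of all protein-coding genes given above. H3K27me3 was called at the TSS of 19 genes in control and 16 in kd, and in both at 15 of 40, against 26.8% of all genes. In control alone it was called at 4 of 40, Osm, Klf4, Myc and Pim1, against 8.15%. In kd alone it was called at Cish, against 2.39%. Ezh2 was called at 5 in control and 10 in kd, with Cntfr, Il6ra, Stat5a, Gab1 and Fos in kd alone, against 5.78% of all genes.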

How the data were processed

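Regions of 5 antibodies were analysed in control and Smarcb1 kd 81K1 cells. Per the methods and labels, the authors trimmed reads (Trim Galore), aligned them to mm10 (Bowtie2), kept unique alignments (SAMtools 1.9), and called regions library by library against a background sample, using MACS2 for Smarca4 and Ezh2 and SICER for histone marks. The methods and the sample titles name input as this background, while other labels and a figure legend of the paper name IgG. The deposited score is the authors' MACS2 score, and the deposited p-value of an island comes from SICER and had been used by the authors as a filter. Neither is scaled between libraries, so values were compared by percentile within a list. The authors' differential calls were not used here.

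Regions of the autosomes (1 to 19) and both sex chromosomes were placed in windows of GENCODE M21 (GRCm38) genes with Python 3.11.15 and pandas 2.3.3. Overlap calls were first tested on simulated regions. The 6 genes and all gene lists were chosen with earlier results of these data known. Regions printed with coordinates are those within 1 kb of a TSS and, per gene and condition, the highest-scoring Smarca4 or Ezh2 peak of 1 condition alone. Shares have 95% Wilson intervals. Alternatives were a stricter threshold (a score of 50, or a -log10 p of 10 for H3K27ac and 20 for the other marks), an overlap of 50% of the shorter region, lists of equal length, removal of regions that are at least 50% repeat-masked, merging of regions closer than 1 kb, gene regions without flanks, leaving out regions at another gene's TSS, and start sites of all transcripts. The use of lists of equal length at the TSS was added after the data were seen. Expression was not analysed here.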

Additional observations from a re-analysis of the deposited data

How the results depend on the processing

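Of 120 counts recomputed under an alternative, 104 stayed within 1.5 times the reported count and 16 did not. The 104 include counts of 0 that stayed 0. They also include the TSS counts under the 50% overlap, which that alternative cannot change. The tally is therefore no measure of robustness. With gene regions in place of the windows, Smarca4 control-only peaks went from 21 to 10 and kd-only peaks from 28 to 10, control-only H3K27me3 islands from 7 to 1, kd-only H3K27ac islands from 12 to 5, and the kd-only regions of H3K27me3, H3K4me3 and Ezh2, 1, 3 and 1, to 0. This alternative leaves out the flanks, where those regions lay. With the stricter threshold, kd-only Smarca4 peaks went from 28 to 17, H3K27ac at the TSS in control from 2 genes to 1, and the control-only H3K27ac island, the kd-only H3K27me3 island and the kd-only Ezh2 peak to 0. Merging left 7 control-only and 15 kd-only Smarca4 peaks, since it joins neighbours. Without repeat-masked regions the control-only H3K27ac island was gone (0), and in lists of equal length 2 kd-only H3K27me3 islands were called in place of 1. The causes of the last were not tested. The 4 control-only H3K27me3 islands of Lif were called under all alternatives except that without flanks, which kept 1, and that without regions at another gene's TSS, which kept 3. No paired analysis was possible because there was 1 library per antibody and condition, and for the same reason no replicate could be left out. The unknown depth limits every missing call.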

Other observations

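Among the 40 other genes of the pathway, 34 had an H3K27me3 island in their window in control, and 11 of these (32.4%) had none in Smarcb1 kd, against 20.1% of all protein-coding windows with a control island. The 11 were Osm and Ctf1 among the ligands, Pias1, Pias3 and Ptpn2 among the inhibitors, the adaptor Grb2, and the Stat3 targets Klf4, Tfcp2l1, Pim1, Junb and Bcl3. All 11 windows held a kd-only H3K27ac island, against 69.8% of all windows with H3K27me3 in control and none in kd, and in 9 of the 11 H3K27ac covered more of the window in kd, against 64.9%. The Osm window overlaps that of Lif and shares regions with it, so it is not a separate observation. Pim1, which encodes a serine/threonine kinase, had 45.5% of its window in H3K27me3 in control and 0 in kd, and 23.8% and 74.9% in H3K27ac. At Klf4, a pluripotency factor gene, H3K27me3 covered 26.9% in control and 0 in kd, and H3K27ac 7.06% and 13.2%. The single H3K27ac island of Klf4 in control was control-only and the 2 in kd were kd-only, and Smarca4 had 6 peaks in control and 3 in kd.

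The inhibitor Socs1, a relative of Socs3, had H3K27me3 over 76.9% of its window in control and 47.5% in kd, and H3K27ac over 0% and 11.5%. The ligand genes Il6 and Cntf had no H3K27me3 island in control and 1 each in kd, covering 5.55% and 5.24% of their windows. The genes and windows of these paragraphs were chosen after their values were seen, and the values compare single libraries.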
